A study of Homo sapiens with 13 samples.

Results

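Keratins are the intermediate filament proteins of epithelial cells, and 55 keratin genes were measured among the 23637 genes of the RNA tables. The members were taken by name: every gene symbol made of KRT, a number and at most 1 letter (A, B or C), with a RefSeq mRNA identifier, so that keratin-associated protein genes stayed out. The rule uses names and no measured value. All RNA and chromatin came from TE-7, an established human cell line that the labels call esophageal epithelial, grown in RPMI medium with 5% serum. Cells were left untreated (control) or received interleukin-13 (IL-13), a type 2 cytokine of allergic inflammation, at 100 ng/ml. RNA was sequenced from 1 control and 1 IL-13 library at each of 2, 6 and 24 hr. Chromatin immunoprecipitation (ChIP-seq) for the active histone marks H3K4me3, H3K9Ac and H3K27Ac, with and without 6 hr of IL-13, gave another 6 libraries, and an input DNA library was not used here. No group has a replicate, the line stands for a single source of cells, and the column names of the 24 hr RNA libraries carry a passage label, p13, that those of the other times lack.

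A keratin filament is built from pairs of 1 acidic type I and 1 basic or neutral type II protein, and pairs mark the kind and state of an epithelium. In stratified squamous epithelia such as that of the esophagus, KRT5 and KRT14 fill the dividing basal layer, KRT4 and KRT13 the layers above it in mucosa, and KRT1 and KRT10 the layers above it in epidermis. KRT6, KRT16 and KRT17 are known from wound edges and hyperproliferation, and KRT7, KRT8, KRT18 and KRT19 from simple epithelia and from many epithelial tumours.

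The 55 genes lie in the usual pair of clusters. In build hg19, 27 members stood on chromosome 12 between 52562780 and 53346685, a span of 784 kb that holds 26 type II genes and the type I gene KRT18. The other 28, all type I, stood on chromosome 17 between 38811872 and 39780882, over 969 kb. The promoters of 4 members with contrasting RNA or marks are printed here: KRT5, the most abundant keratin at 6 and 24 hr with the highest H3K4me3 of the set; KRT10, which was 9.45-fold higher at 24 hr than at 6 hr in the controls; KRT3, a corneal keratin near 1 RPKM whose start nevertheless had H3K27Ac peaks; and KRT4, at about the same RNA level with no peak listed. Each line gives the 250 bases before the RefSeq transcription start, 5′ to 3′ on the gene's own strand (minus in all 4), from build GRCh38.p14, which differs from the hg19 of the deposited tables. Capitals mark the exact letters TATAAA, a form of the TATA box. No other searched motif fell in these 4 windows except CCAAT, which lies on the opposite strand in KRT10 and is left in lower case.
KRT5, chr12:52520395-52520644: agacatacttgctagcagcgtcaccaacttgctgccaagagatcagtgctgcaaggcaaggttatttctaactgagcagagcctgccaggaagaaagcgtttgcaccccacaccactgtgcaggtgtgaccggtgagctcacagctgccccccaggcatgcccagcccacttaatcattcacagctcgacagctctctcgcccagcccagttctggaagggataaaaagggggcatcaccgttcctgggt
KRT10, chr17:40822615-40822864: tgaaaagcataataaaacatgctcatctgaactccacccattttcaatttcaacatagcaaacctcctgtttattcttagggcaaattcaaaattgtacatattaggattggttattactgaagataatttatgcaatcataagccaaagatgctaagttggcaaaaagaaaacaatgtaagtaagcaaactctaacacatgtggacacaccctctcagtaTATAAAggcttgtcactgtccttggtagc
KRT3, chr12:52796118-52796367: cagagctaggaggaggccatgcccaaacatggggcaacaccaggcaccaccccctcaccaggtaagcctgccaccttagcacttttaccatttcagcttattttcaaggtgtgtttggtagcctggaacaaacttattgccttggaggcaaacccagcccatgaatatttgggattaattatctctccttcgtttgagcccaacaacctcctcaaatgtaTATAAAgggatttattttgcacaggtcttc
KRT4, chr12:52814117-52814366: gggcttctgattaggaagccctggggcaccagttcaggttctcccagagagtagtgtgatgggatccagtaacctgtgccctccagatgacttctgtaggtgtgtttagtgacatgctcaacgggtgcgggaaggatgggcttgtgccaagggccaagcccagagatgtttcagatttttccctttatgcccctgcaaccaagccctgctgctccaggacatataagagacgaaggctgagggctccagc
KRT10 has TATAAA from base -29 and KRT3 from base -30 relative to the start. KRT10 also has CCAAT at -143 on the opposite strand, printed here as attgg. The windows of KRT5 and KRT4 hold no exact match to these motifs. Related spellings, such as gataaaa near the end of the KRT5 window and tataag near that of KRT4, were not searched. So the lack of a match does not show that a promoter lacks a TATA box. Promoters of 34 of the 55 members were in the table, among them 3 of the 16 that reached 10 RPKM (KRT5, KRT8 and KRT10). Searched on both strands, TATAAA was found in 20 of the 34 (58.8%), against 11.1% of all 27305 promoter windows of the same length. Of those 20, 16 belonged to the 21 hair and inner root sheath promoters in the table. CCAAT was found in 16 of 34 (47.1%), against 33.0%. TTCNNNNGAA, the form of palindrome that STAT6, the factor downstream of the IL-13 receptor, is known to bind, was found in 3 of 34, namely KRT33A, KRT31 and KRT35, against 5.35% of all windows. TGANTCA, the AP-1 form, was found in 0 of 34, against 6.60%. These are matches of letters in a short window, not sites shown to be used.

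Expression was deposited as RPKM, reads scaled to the length of a gene and to all mapped reads, which can be compared between genes. Depth, read from the spacing of the low values, was 13.6 and 14.0 megareads (M reads) for the control and IL-13 libraries at 24 hr. The 4 earlier libraries each behaved as the mean of a pair of read sets of 13.0 to 26.9 M reads, and the controls at 2 and 6 hr shared 359 identical values (0 of them keratins), so 1 read set appears to have entered both. The squamous marker genes other than keratins (10 genes, such as TP63, DSG3 and COL17A1) all reached 1 RPKM, with sums of 1238 to 1969 RPKM over the libraries. Of the columnar markers 0 of 8 reached 1 RPKM (sums 0.215 to 0.613, CDX1 and CDX2 at 0), of the fibroblast markers 1 of 6 (2.3 to 5.39) and of the endothelial markers 1 of 4 (0.792 to 4.27, VWF, higher with IL-13 at 24 hr). The brain list was drawn up knowing that the control at 2 hr held such transcripts, so a higher sum there was fixed in advance. Of the brain markers 7 of 10 reached 1 RPKM, with a sum of 23.7 RPKM in the control at 2 hr and 6.21 to 7.48 in the other libraries. Outside that control only MBP of this list reached 1 RPKM, at 6.05 to 7.25. The part of these marker RNAs in the keratin results was not tested.

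TE-7 cells carried abundant keratin RNA of the basal, wound and simple epithelial kinds. The 55 genes together summed to 7602 and 7434 RPKM in the control and IL-13 libraries at 2 hr, 6438 and 6159 at 6 hr, and 7024 and 4499 at 24 hr. The lowest sum was that of the IL-13 library at 24 hr. As a share of the RPKM of all genes these sums were 1.64%, 1.64%, 1.37%, 1.32%, 1.54% and 0.988% in the same order. In each library 6 genes made up 78.4% to 83.9% of the keratin sum; KRT17 was the highest keratin at 2 hr in both libraries and KRT5 at 6 and 24 hr.

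**Figure D1:**
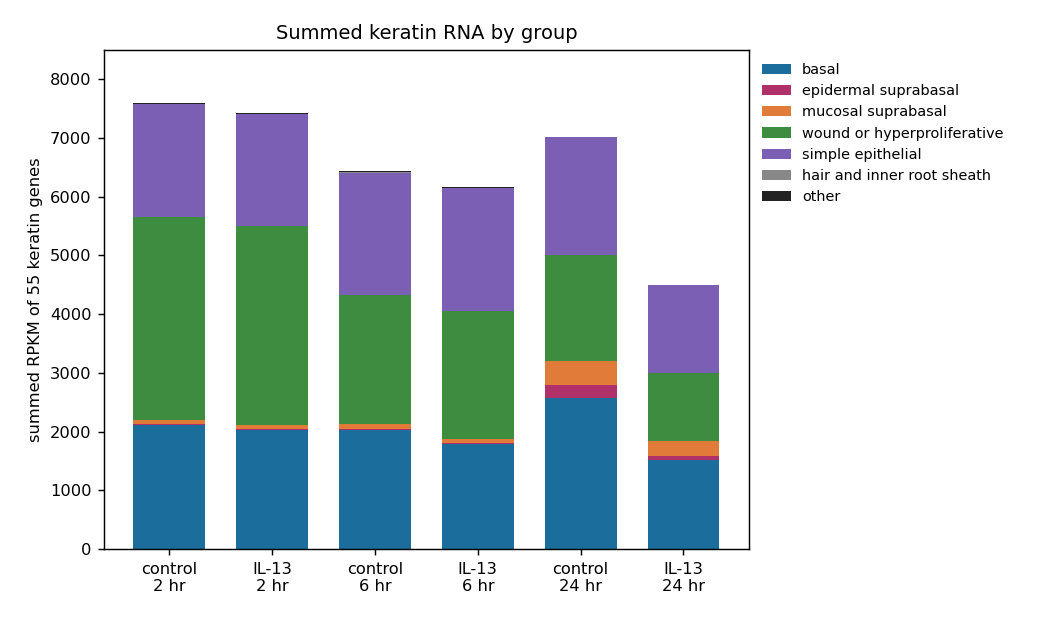
Summed RPKM of the 55 keratin genes (vertical axis) in the 6 RNA libraries (horizontal axis), each bar stacked by keratin group, with 1 library per bar. The IL-13 library at 24 hr has the lowest bar, and the wound group fills a smaller part of both 24 hr bars than of the 2 hr bars.

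Of the 55 members, 16 reached 10 RPKM in some library, 6 lay between 1 and 10 at their highest, and 33 stayed under 1 RPKM in all 6 libraries. Across all genes 54.5% reached 1 RPKM and 32.8% reached 10, against 40% and 29.1% of the keratins. All 3 basal and all 6 wound members reached 1 RPKM, as did 4 of 6 simple epithelial members, 3 of 5 epidermal suprabasal members and 3 of 7 mucosal suprabasal members. Only 2 of 25 hair and inner root sheath keratins (KRT81 and KRT34) did so. Of the 33 low members, 23 had some signal, up to 0.79 RPKM (KRT86, a hair keratin that shares sequence with KRT81), and 10 were listed at 0 throughout: KRT12, the corneal partner of KRT3, and the hair or root sheath genes KRT26, KRT28, KRT35, KRT37, KRT38, KRT39, KRT40, KRT72 and KRT82. The low members with signal were KRT2 and KRT77 (epidermis), KRT24, KRT76 and KRT78 (mucosa), KRT20 and KRT23 (simple epithelia), KRT25, KRT27, KRT31, KRT32, KRT33A, KRT33B, KRT36, KRT71, KRT73, KRT74, KRT83, KRT84, KRT85 and KRT86 (hair and root sheath), and KRT79 and KRT222. In a gene of 1 kb, 1 RPKM at 24 hr stood for 13.6 or 14.0 reads, so a value of 0.1 RPKM rests on very few reads.

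**Figure D2:**
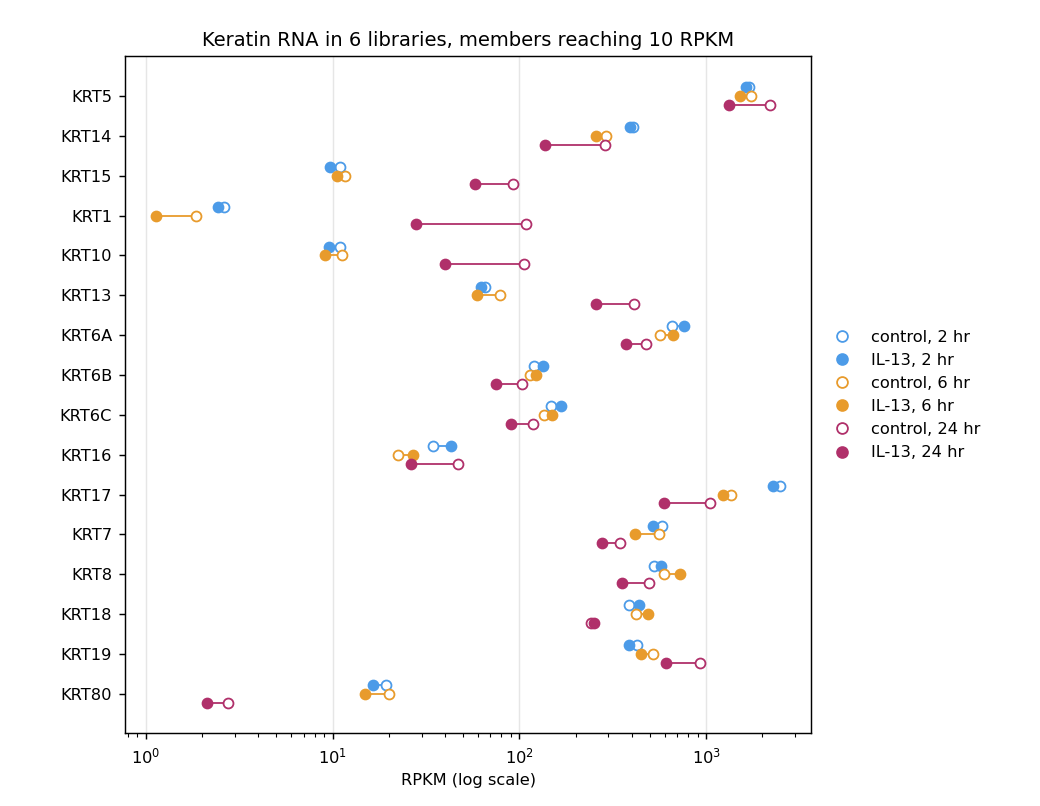
RPKM (horizontal axis, log scale) of the 16 keratin genes that reached 10 RPKM, by gene; open circles are control and filled circles IL-13 libraries, coloured by time, with 1 library per circle. At 24 hr every filled circle lies left of its open circle except that of KRT18, and KRT1, KRT10, KRT13 and KRT15 lie to the right of their 2 and 6 hr values.

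The basal keratins are taken first, with each pair of values given as control and then IL-13. KRT5 (chromosome 12, 52908359 to 52914243, minus strand), the type II basal keratin, stood at 1702 and 1627 RPKM at 2 hr, 1729 and 1528 at 6 hr, and 2199.8 and 1323 at 24 hr. Its 24 hr libraries were both the highest and the lowest of the 6, and the control was 1.66-fold above IL-13 there. In bulk RNA such as this, fewer cells that express a gene and less of its RNA per cell cannot be told apart. KRT14 (chromosome 17, 39738531 to 39743147, minus strand), its type I partner, stood at 408 and 391 RPKM at 2 hr, 291 and 258 at 6 hr, and 287 and 137 at 24 hr. The IL-13 library at 24 hr was below all others, 2.10-fold under its control, while the 2 and 6 hr pairs were within 1.13-fold. KRT15 (chromosome 17, 39669997 to 39675270, minus strand), known from basal cells of esophagus and hair follicle, stood at 11.0 and 9.72 RPKM at 2 hr, 11.6 and 10.6 at 6 hr, and 92.7 and 57.7 at 24 hr. Both 24 hr libraries were above all the earlier ones, and the control exceeded IL-13 by 1.61-fold at 24 hr. The ratio of KRT5 to KRT14 RPKM was 4.17 and 4.16 at 2 hr, 5.94 and 5.91 at 6 hr, and 7.67 and 9.68 at 24 hr, so the pair was matched between treatments at the early times and furthest apart with IL-13 at 24 hr.

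The epidermal suprabasal keratins had the largest differences between IL-13 and control at 24 hr. KRT1 (chromosome 12, 53068520 to 53074191, minus strand), the type II keratin of the spinous layer, stood at 2.62 and 2.44 RPKM at 2 hr, 1.85 and 1.13 at 6 hr, and 109 and 27.8 at 24 hr. It was low in all 4 early libraries and high in both 24 hr libraries, with the control 3.91-fold above IL-13. KRT10 (chromosome 17, 38974369 to 38978863, minus strand), its type I partner, stood at 10.9 and 9.56 RPKM at 2 hr, 11.2 and 9.09 at 6 hr, and 106 and 40.2 at 24 hr. The control was above IL-13 in each pair, by 1.15-fold, 1.23-fold and 2.63-fold in order of time. KRT9, a keratin of palm and sole epidermis, stood at 1.51 and 1.4 RPKM at 2 hr, 1.01 and 0.984 at 6 hr, and 1.16 and 0.467 at 24 hr. Its lowest library was IL-13 at 24 hr, 2.48-fold under the control, at a level close to the limit of 1 RPKM used for comparison. The ratio of KRT1 to KRT10 RPKM was between 0.125 and 0.255 in the 4 early libraries and 1.03 and 0.691 at 24 hr. KRT10 overlaps TMEM99 on the opposite strand (chromosome 17, 38975437 to 38978863), whose RPKM was 2.42 to 5.44, and no source at hand says whether counting used strand.

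Among the mucosal suprabasal keratins only KRT13 was abundant. KRT13 (chromosome 17, 39657233 to 39661865, minus strand), the main type I keratin of the upper layers of esophageal lining, stood at 65.4 and 62.0 RPKM at 2 hr, 78.3 and 59.4 at 6 hr, and 409 and 256 at 24 hr. The 24 hr libraries were the highest, with the control 1.60-fold above IL-13. KRT4, its type II partner, stood at 1.14 and 0.937 RPKM at 2 hr, 1.38 and 0.606 at 6 hr, and 4.12 and 2.39 at 24 hr. Its ratio to KRT13 by RPKM was between 0.00934 and 0.0176, so the pair was far from equal in every library, and the IL-13 value of KRT4 was under the control at each time. KRT3 stood at 0.982 and 1.47 RPKM at 2 hr, 1.03 and 1.1 at 6 hr, and 1.21 and 1.02 at 24 hr, with IL-13 higher at 2 hr and lower at 24 hr and all values near 1 RPKM.

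The wound and hyperproliferative keratins were high from the start. KRT17 (chromosome 17, 39775692 to 39780882, minus strand) stood at 2487 and 2277 RPKM at 2 hr, 1352 and 1224 at 6 hr, and 1054 and 594 at 24 hr. It was highest at 2 hr in both treatments, and at 24 hr the control exceeded IL-13 by 1.77-fold. KRT6A (chromosome 12, 52880958 to 52887181, minus strand), the main type II wound keratin, stood at 657 and 764 RPKM at 2 hr, 565 and 666 at 6 hr, and 479 and 375 at 24 hr. With IL-13 it was above the control at 2 and 6 hr and below it at 24 hr. KRT6B stood at 119 and 133 RPKM at 2 hr, 114 and 123 at 6 hr, and 103 and 74.7 at 24 hr, and KRT6C at 147 and 167 RPKM at 2 hr, 135 and 150.3 at 6 hr, and 118 and 89.7 at 24 hr. Both had the same order of libraries within each time as KRT6A, and since these 3 genes are near-identical copies that can share reads, they are not 3 independent readings. KRT16 (chromosome 17, 39766031 to 39769079, minus strand), the type I partner of KRT6, stood at 34.5 and 43.2 RPKM at 2 hr, 22.3 and 26.9 at 6 hr, and 46.9 and 26.4 at 24 hr. It too was above the control with IL-13 at 2 and 6 hr and 1.78-fold below it at 24 hr, and it shares long stretches with KRT14 and KRT17. KRT75, a companion layer keratin of the hair follicle, stood at 4.23 and 3.77 RPKM at 2 hr, 3.5 and 3.61 at 6 hr, and 2.95 and 1.88 at 24 hr, with its lowest value in the IL-13 library at 24 hr.

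The simple epithelial keratins follow. KRT8 (chromosome 12, 53290971 to 53343650, minus strand), the type II keratin of simple epithelia, stood at 525 and 576 RPKM at 2 hr, 591 and 726 at 6 hr, and 495 and 353 at 24 hr. IL-13 was above control at 2 and 6 hr and below it at 24 hr. KRT18 (chromosome 12, 53342843 to 53346685, plus strand), its type I partner, stood at 389 and 437 RPKM at 2 hr, 422 and 491 at 6 hr, and 241 and 252 at 24 hr, and was the only one of the 16 abundant keratins with a higher value under IL-13 at all 3 times. KRT8 and KRT18 overlap on opposite strands between 53342843 and 53343650 and both have many processed pseudogenes, so their counts are less certain. KRT7 (chromosome 12, 52626954 to 52642709, plus strand), a type II keratin of glands and ducts, stood at 583 and 518 RPKM at 2 hr, 559 and 416 at 6 hr, and 346 and 276 at 24 hr, with IL-13 under control at each time. KRT19 (chromosome 17, 39679869 to 39684641, minus strand), the smallest type I keratin, stood at 425 and 385 RPKM at 2 hr, 521 and 446 at 6 hr, and 923 and 607 at 24 hr. The controls exceeded IL-13 at all times and both 24 hr libraries were above the earlier ones. KRT80 (chromosome 12, 52562780 to 52585784, minus strand), a type II keratin outside these groups that is found near cell junctions, stood at 19.2 and 16.4 RPKM at 2 hr, 20.1 and 14.9 at 6 hr, and 2.75 and 2.12 at 24 hr. It was lower in the 24 hr libraries than in any earlier one, in both treatments.

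Of the hair keratins that reached 1 RPKM, KRT81 stood at 5.37 and 4.25 RPKM at 2 hr, 3.39 and 2.15 at 6 hr, and 0.232 and 0.149 at 24 hr, and KRT34 ranged from 1.32 RPKM in the control at 2 hr to 0 in the IL-13 library at 24 hr. Both were highest at 2 hr and lowest at 24 hr. KRT81 has near-identical neighbours in KRT83 and KRT86, so reads may be split among them.

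The design asks how IL-13 alters RNA at each time. With 1 library in each group this is a difference between libraries, with no p-value; a member was counted when its values in log2(RPKM + 0.1) were at least 1 unit (2-fold) apart and its higher library reached 1 RPKM. That scale understates differences of low genes. At 2 hr, 0 of 22 members compared were higher with IL-13 and 0 were lower, where 0.658% and 0.342% of all genes were. Their median log2 ratio was -0.10, against 0.0023 for all 12005 genes. At 6 hr, 0 of 21 members were higher and 1, KRT4, was lower (log2 ratio -1.07, 2.28-fold), where 0.753% and 0.318% of all genes were, and the member median was -0.14 against -0.0042. KRT4 stood at 1.38 and 0.606 RPKM there, and its log2 ratio under a pseudocount of 1 was -0.57, which misses the 2-fold limit.

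At 24 hr, 4 of 20 members compared were lower with IL-13 by this rule and 0 were higher, where 1.27% and 0.886% of all genes were. The 4 were KRT1 (log2 ratio -1.96), KRT10 (-1.39), KRT9 (-1.15) and KRT14 (-1.07), which are the 3 epidermal suprabasal keratins compared and a basal one. KRT9 lost the call with a pseudocount of 1 (-0.56). The member median was -0.65, against 0.02 over 12524 genes, and 19 of the 20 members had a lower value with IL-13, against 45.4% of all genes compared. By group the median log2 ratio was -1.39 for the epidermal suprabasal members, -0.73 for the basal, -0.67 for the mucosal, -0.54 for the wound and -0.41 for the simple epithelial members. KRT18 (0.06) was the exception among the 20. With a 1.5-fold limit 12 members were lower at 24 hr, where 3.89% of all genes were, against 1 member at 2 hr (0.9% of all genes) and 3 at 6 hr (1.28%). The limit leaves KRT3, KRT6A, KRT6B, KRT6C, KRT7, KRT8, KRT18 and KRT80 outside at 24 hr. At 2 hr 15 of 22 members and at 6 hr 13 of 21 had the lower value with IL-13, against 49.2% and 51.5% of all genes.

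**Figure D3:**
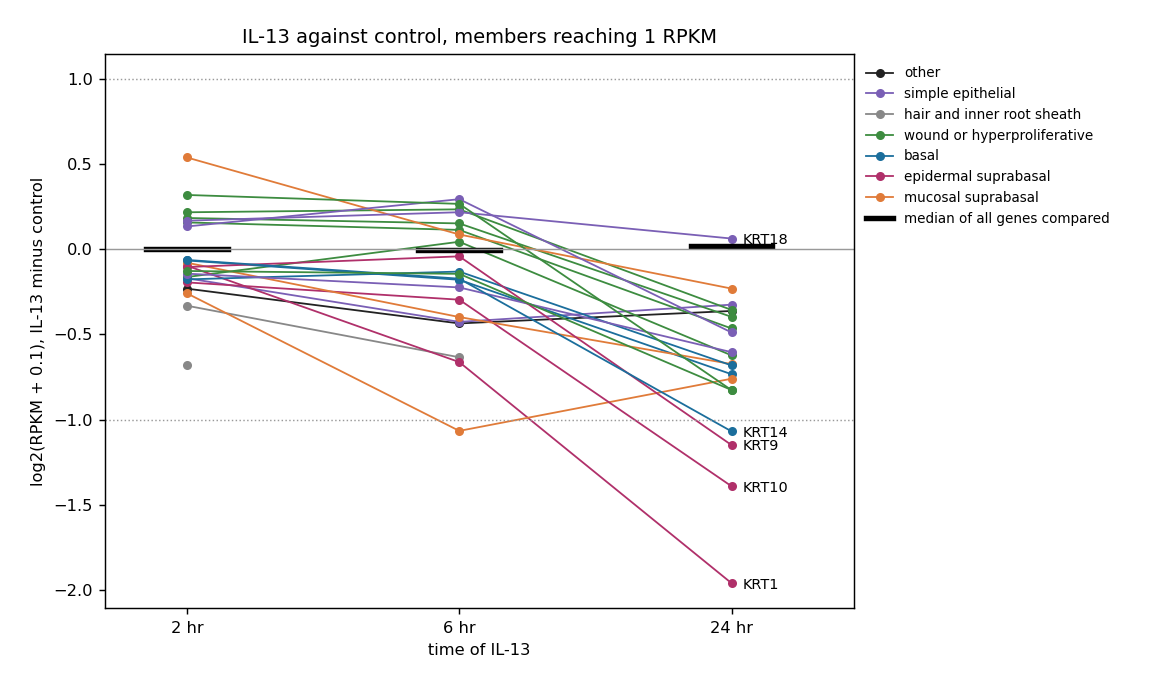
Log2 ratio of IL-13 over control on the log2(RPKM + 0.1) scale (vertical axis) at 2, 6 and 24 hr for each keratin that reached 1 RPKM at that time, coloured by group, with 1 pair of libraries per point, dotted lines at 2-fold and black bars for the median of all genes compared. The points centre near 0 at 2 and 6 hr and lie below 0 at 24 hr except for KRT18.

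The authors' deposited table gives its own adjusted p-values for each time, by a test that neither headers nor labels describe; the submitters' processing notes name DESeq, with no role stated. At an adjusted p under 0.05 it passed 0 of 55 members at 2 hr and 0 at 6 hr, where it passed 0.00846% of genes as higher and 0.00423% as lower at 2 hr, and 0.317% and 0.0338% at 6 hr. At 24 hr it passed 0 members as higher and 4 as lower, where 0.224% and 0.368% of all genes passed. In the authors' deposited table these were KRT1 (log2 ratio -1.98, adjusted p 2.74e-16), KRT10 (-1.41, 4.00e-08), KRT14 (-1.08, 5.63e-04) and KRT16 (-0.84, 0.0214). KRT15 (-0.70, 0.0884) was next in the authors' deposited table. KRT9, lower by the size rule, had an adjusted p of 1 in the authors' deposited table (log2 ratio -1.32). With 1 library in each group these p-values do not measure the spread between cultures.

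For an IL-13 difference common to all 3 times, limma was fitted with additive terms for treatment and time to the log2(RPKM + 0.1) of 11953 genes, each at 1 RPKM or more in at least 3 libraries. The fit leaves 2 residual degrees of freedom, and its p-values measure the spread of the ratio over the times, since the labels name no separate cultures. Because the 2 and 6 hr controls appear to share a read set, their ratios are not independent, and that spread may be understated. By Benjamini-Hochberg adjusted p under 0.05, limma called 0 of the 21 members fitted, and 0% of all genes. At an unadjusted p under 0.05 there were 7 members in limma, 6 with a lower and 1 with a higher estimate, and 2025 of all genes. The smallest adjusted p of a member in limma was 0.177, shared by KRT80 (log2 difference -0.34 ± 0.06 SE, lower with IL-13 at 3 of 3 times) and KRT81 (-0.46 ± 0.08 SE, lower at 3 of 3). The smallest over all genes was 0.114. The median estimate was -0.33 for the members and 0.01 for all genes.

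Whether the 24 hr ratio differs from the earlier ones was tested by adding a term for treatment at 24 hr to the limma model, a test chosen after the data had been seen, with 1 residual degree of freedom, which comes from the 2 and 6 hr ratios that appear to share control reads. Limma called 0 of 21 members at a Benjamini-Hochberg adjusted p under 0.05, and 0.0586% of all genes (7 of 11953, with 0.0418% higher and 0.0167% lower). At an unadjusted p under 0.05 there were 14 members, all with the lower ratio at 24 hr, and 2714 of all genes in either direction. The smallest adjusted p was 0.086 in limma for KRT9 (difference of log2 ratios -1.08 ± 0.07 SE) and KRT16 (-1.12 ± 0.07). When the variance prior was allowed to depend on level (limma-trend), 12 of the 21 passed, all lower, where 3.52% of all genes passed as lower and 3.44% as higher. They were KRT1, KRT5, KRT6A, KRT6B, KRT6C, KRT8, KRT10, KRT14, KRT15, KRT16, KRT17 and KRT19. Their limma-trend adjusted p ran from 0.00448 for KRT16 to 0.0246 for KRT1 (difference -1.58). The call therefore depends on how limma's variance prior is set. The median of these differences was -0.57 over the members and 0.01 over all genes.

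Times were compared in the same additive limma fit, in which 24 hr libraries of both treatments were set against the mean of 2 and 6 hr. Its p-values and SEs again measure the spread of the IL-13 ratio over the times, not the spread between cultures at a time. The read set that the 2 and 6 hr controls appear to share enters this comparison too, so that spread may be understated. By Benjamini-Hochberg adjusted p under 0.05, 16 of 21 members were called, against 76.3% of all genes, so the share is near the background. Of these, 6 rose (51.4% of all genes did) and 10 fell (24.9% did). Time in this design cannot be told apart from the passage label and the single read set of the 24 hr libraries.

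The 6 that rose at 24 hr were KRT1 (log2 difference 4.77 ± 0.41 SE, limma adjusted p 8.97e-04), KRT15 (2.76 ± 0.14, 3.40e-04), KRT10 (2.67 ± 0.28, 0.00159), KRT13 (2.29 ± 0.13, 4.13e-04), KRT4 (1.59 ± 0.18, 0.00181) and KRT19 (0.76 ± 0.11, 0.00419). They comprise both members of the epidermal pair KRT1 and KRT10 and both of the mucosal pair KRT4 and KRT13. KRT13, KRT15 and KRT19 are immediate neighbours: they are the only 3 genes in the 27.4 kb from 39657233 to 39684641 of chromosome 17. The 10 that fell were KRT81, KRT80, KRT17, KRT18, KRT14, KRT7, KRT75, KRT6A, KRT6C and KRT6B. They include 5 of the 6 members of the wound group, but KRT6A, KRT6B and KRT6C can share reads and are not independent. KRT81 fell by 3.68 and KRT80 by 2.81 on the log2 scale (limma adjusted p 2.37e-04 for both), KRT17 by 1.14 (0.00453), KRT18 by 0.81 (5.48e-04) and KRT7 by 0.74 (0.00119). KRT14 (fell by 0.74, 0.0440), KRT6B (0.47, 0.0452) and KRT6C (0.54, 0.0267) were near the threshold in limma: without 2 hr, their adjusted p was 0.134, 0.0721 and 0.0508, and KRT6B had 0.0616 without 6 hr. KRT5 (0.05), KRT3 (-0.02), KRT16 (0.19), KRT8 (-0.52, adjusted p 0.0542) and KRT9 (-0.63, 0.0927) were not called by limma.

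The median change of the members was -0.52 and that of all genes 0.22. Centring each library on its median shifted every estimate by 0.288 on the log2 scale, and KRT8 and KRT9 were then called as lower too, at limma adjusted p of 0.0137 and 0.0313. The count of higher calls was 6 under that centring as well.

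By the 2-fold size rule within each treatment, the control libraries had 6 of 21 members higher at 24 hr than at 6 hr (KRT1, KRT4, KRT10, KRT13, KRT15 and KRT16) and 2 lower (KRT80 and KRT81), where 16.2% and 6.09% of all genes were. The IL-13 libraries had 5 of 20 higher, the same set without KRT16, and 4 lower (KRT8, KRT17, KRT80 and KRT81), where 14.9% and 5.01% of all genes were. KRT1 was 58.7-fold higher at 24 than at 6 hr in the controls and 24.5-fold with IL-13, and KRT10 was 9.45-fold and 4.42-fold higher. KRT15 was 8.00-fold and 5.46-fold higher, and KRT13 5.22-fold and 4.31-fold. KRT80 was lower by 7.33-fold and 7.03-fold and KRT81 by 14.6-fold and 14.4-fold, so for these falling genes both treatments gave about the same size. Between 2 and 6 hr 1 of 22 members was lower in the controls (KRT34, 2.90-fold) and 1 of 20 with IL-13 (KRT1, 2.16-fold), with 0 higher in either, where 2.36% and 2.90% of all genes were lower and 0.2% and 0.522% higher.

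Between 2 and 24 hr, the controls had 6 of 22 members higher (KRT1, KRT4, KRT10, KRT13, KRT15 and KRT19) and 4 lower (KRT17, KRT34, KRT80 and KRT81), where 16.4% and 5.66% of all genes were. The IL-13 libraries had 5 of 21 higher (KRT1, KRT4, KRT10, KRT13 and KRT15) and 6 lower (KRT6A, KRT9, KRT14, KRT17, KRT80 and KRT81), where 14.8% and 5.47% were. KRT14 was 1.42-fold lower at 24 than at 2 hr in the controls and 2.86-fold lower with IL-13, and KRT17 was 2.36-fold and 3.83-fold lower.

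**Figure D4:**
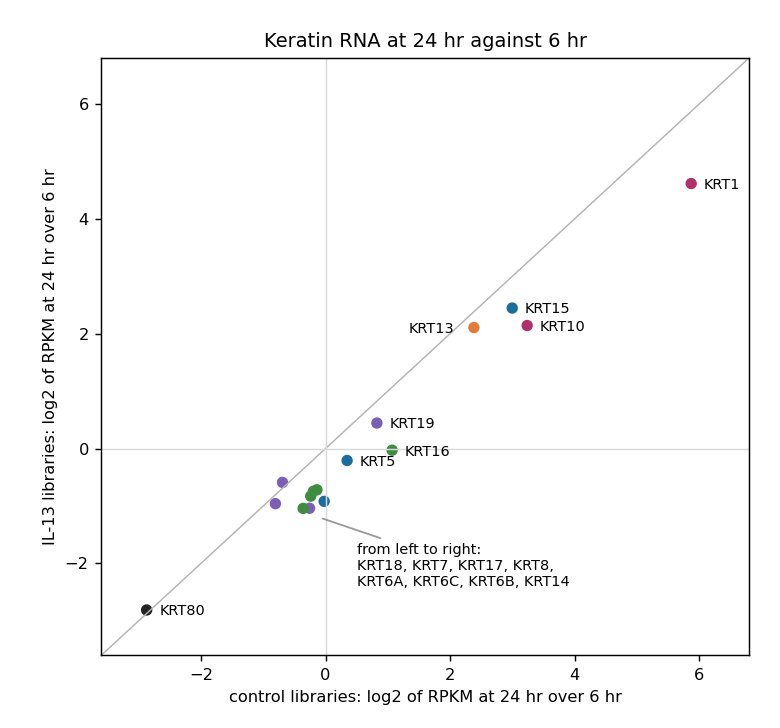
Log2 of RPKM at 24 hr over 6 hr in the control libraries (horizontal axis) against the same in the IL-13 libraries (vertical axis) for the 16 keratins that reached 10 RPKM, coloured by group, with the line of equality. KRT1, KRT10, KRT15 and KRT13 lie far above 0 on both axes and below the line, and KRT80 lies far below 0 on both.

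By type, summed type II over summed type I RPKM was 0.983 and 1.06 at 2 hr, 1.37 and 1.44 at 6 hr, and 1.22 and 1.28 at 24 hr in control and IL-13. The ratio was a little higher with IL-13 at each time and lowest at 2 hr, when KRT17 was highest. Other pairs were not kept in proportion: KRT8 over KRT18 was between 1.32 and 1.48 in the 4 early libraries, 2.05 in the control at 24 hr and 1.40 with IL-13. KRT6A over KRT16 was 17.7 to 25.3 early, and 10.23 and 14.2 at 24 hr. Of the keratin sum, the epidermal suprabasal group made up 3.07% in the control and 1.52% with IL-13 at 24 hr, against 0.181% to 0.218% before. The wound group went from 45.4% and 45.6% at 2 hr to 25.7% and 25.8% at 24 hr, nearly equal between treatments at each of these times.

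Genes that work with keratins were read in 3 further lists, and these were chosen with earlier results of these data known. By the 2-fold rule 0.658% of all genes compared were higher with IL-13 and 0.342% lower at 2 hr. The shares were 0.753% and 0.318% at 6 hr, and 0.886% and 1.27% at 24 hr. Of 16 other intermediate filament genes, 0 were higher and 1 lower of 9 compared at 2 hr, 0 and 0 of 7 at 6 hr, and 0 and 1 of 8 at 24 hr. The lower ones were GFAP, the astrocyte filament, at 2.06 RPKM in the 2 hr control and listed at 0 with IL-13, and SYNC, a muscle-type filament protein, at 1.95 and 0.869 RPKM at 24 hr. GFAP is also 1 of the brain markers that are high in that control. VIM, the filament of mesenchymal cells, stayed between 0.587 and 1.16 RPKM in all libraries. Of 16 genes of keratin anchorage and bundling (desmosomal plaque and plakin genes such as DSP, PLEC and PKP1), 0 of 13 compared passed the size rule in either direction at any time, with median log2 ratios of -0.01, -0.07 and -0.25 at 2, 6 and 24 hr. FLG, which bundles keratin in epidermis, did not exceed 0.0153 RPKM, so KRT1 and KRT10 were present at 24 hr with almost no FLG RNA.

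Of 21 regulators of squamous keratin genes, 2 of 18 were higher with IL-13 at 2 hr (EHF and SOX2), 2 higher and 1 lower (GRHL3) of 18 at 6 hr, and 1 higher (SOX2) and 1 lower (OVOL1) of 19 at 24 hr. Of all genes, 0.658%, 0.753% and 0.886% were higher and 0.342%, 0.318% and 1.27% lower at these times. SOX2 stood at 10.1 and 26.7 RPKM at 2 hr, 16.4 and 37.7 at 6 hr, and 49.2 and 105 at 24 hr. EHF, an epithelial ETS factor, stood at 3.89 and 8.81 RPKM at 2 hr, 4.62 and 12.5 at 6 hr, and 18.6 and 25.3 at 24 hr, higher with IL-13 in each pair. GRHL3, a grainyhead factor of barrier formation, stood at 1.21 and 0.495 RPKM at 6 hr. OVOL1, a zinc finger factor of the suprabasal transition, stood at 38.7 and 15.3 RPKM at 24 hr. The median log2 ratios of the list were -0.10, -0.20 and -0.21 over the 3 times. TP63, the master factor of the basal layer, stood at 230.1 and 228 RPKM at 24 hr, where the treatments were nearly equal. In limma 0 of these regulators passed the shared IL-13 test, with SOX2 at the smallest adjusted p of all genes, 0.114.

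The histone marks were read from the authors' peak lists, in which each peak is given at the transcription starts to which it was assigned. M is the authors' rescaled log2 ratio of library 1 over library 2 of a mark, and which library was treated is not stated, so no direction of treatment can be given. The level of each library was computed from M and the mean log2 level, and peaks were compared at a level of at least 30 in the higher library. A peak was listed at 11 of the 55 members for H3K4me3, 14 for H3K9Ac and 20 for H3K27Ac. These counts, and the shares in the rest of this paragraph, take listed peaks of any level, also those under 30. Of the 15 members with at least 10 RPKM at 6 hr, 9 (60%) had H3K4me3, 12 (80%) H3K9Ac and 13 (86.7%) H3K27Ac, against 96.3%, 97.2% and 97.5% of the 6518 genes at that RNA level. KRT6B and KRT6C had no peak in any mark, although their RNA was 114 to 150.3 RPKM at 6 hr, and KRT6A, the near-identical copy, had peaks in all 3. These copies can share reads, so part of that RNA may belong to KRT6A, and ChIP-seq reads can be shared as well. The part of this in the contrast was not tested. Between 1 and 10 RPKM, KRT3 alone of 6 members had peaks (H3K9Ac and H3K27Ac), against 84.2% to 88.9% of all genes at that level for each mark. Its H3K9Ac peak was called in library 1 only, at levels of 25.9 and 1.00, under the limit of 30. Of the 34 members under 1 RPKM, 2, 1 and 6 had H3K4me3, H3K9Ac and H3K27Ac (5.88%, 2.94% and 17.6%), against 20.5%, 25.1% and 28.2% of all such genes.

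The level of the marks did not follow the order of the RNA. KRT5 (start at 52914243) had H3K4me3 levels of 261 and 168 in libraries 1 and 2, above 98.3% of all H3K4me3 peaks, with 395 and 381 for H3K9Ac and 268 and 232 for H3K27Ac. KRT14 had 156 and 166 for H3K27Ac but only 14.8 and 9.0 for H3K4me3, at percentile 8.58 of all peaks, and no H3K9Ac peak. KRT17, at 1352 and 1224 RPKM at 6 hr, had 98.7 and 83.0 for H3K27Ac, at percentile 46.8, and an H3K4me3 peak listed for library 1 only, at 24.1 and 7.01. KRT6A had the highest H3K27Ac level of the set, 363 and 450, at percentile 95.1, and 29.8 and 24.0 for H3K4me3. Of the 6 simple epithelial keratins KRT7, KRT8, KRT18 and KRT19 had all 3 marks, and KRT20 and KRT23 had no peak listed. KRT7 stood at 122 and 83.0 for H3K4me3, and KRT19 at 137 and 116. The KRT18 start at 53342843 and the KRT8 start at 53343650, on the opposite strand, are listed with the same peaks. The strongest of these had H3K4me3 levels of 81.0 and 113, while H3K27Ac reached 204 and 150. Another KRT8 start, at 53298868, has peaks of its own. Its strongest H3K4me3 peak stood at 65.3 and 68.1. The H3K9Ac peak there was higher, at 241 and 209, whereas the strongest H3K27Ac peak was at 56.5 and 93.1. Of the members called as higher at 24 hr, KRT1 and KRT4 had no peak in any mark, whereas KRT10, KRT13, KRT15 and KRT19 had peaks. KRT75 and KRT81, called as lower at 24 hr, and KRT9, not called, had no peak either.

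**Figure D5:**
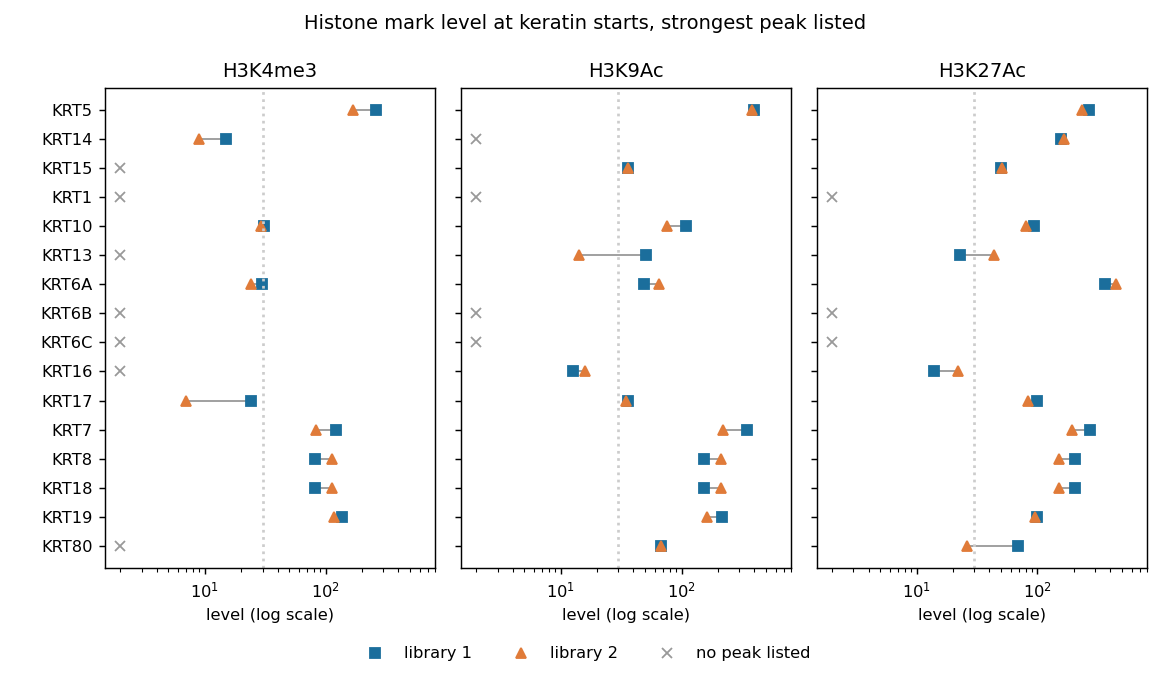
Level of the strongest peak listed at the start of each of the 16 abundant keratins (horizontal axis, log scale, computed from the authors' M and mean level) for H3K4me3, H3K9Ac and H3K27Ac, with squares for library 1, triangles for library 2, crosses for no peak listed and a dotted line at a level of 30. KRT5 has the highest H3K4me3 of these genes, and KRT6B, KRT6C and KRT1 have crosses in all 3 panels.

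The libraries of each mark were compared by M. Of 6 member H3K4me3 peaks compared, 0 were at least 2-fold higher in library 1 and 0 in library 2, where 6.02% and 4.82% of all peaks were. Of 13 H3K9Ac peaks, 1 was higher in library 1 and 2 in library 2, where 3.79% and 3.59% were. In the authors' deposited table these were KRT13 (M 1.86, -log10 p 5.54), and KRT10 (M -1.52, 2.80) and KRT19 (M -1.1, 2.40). At KRT10 and KRT19 a stronger H3K9Ac peak common to both libraries, at M 0.51 and M 0.41 as the authors' deposited table has it, is listed at the same start and is not 2-fold different. Of 24 H3K27Ac peaks, 4 were higher in library 1 and 1 in library 2, where 5.04% and 3.71% were. In the authors' deposited table the 4 were KRT3 (M 1.5, -log10 p 10.4), KRT80 (1.42, 5.12), KRT10 (1.24, 2.96) and KRT8 (1.01, 2.25). The single peak higher in library 2 was assigned to a KRT8 start at 53320253, with M -1.91 and -log10 p 9.78 in the authors' deposited table. A stronger H3K27Ac peak that is common to both libraries and under 2-fold is listed at the same start for KRT3 (M 0.47), KRT10 (M 0.22) and both KRT8 starts (M -0.72 and -0.83 for library 1 and library 2 calls) in the authors' deposited table. KRT80 also has a peak called in library 2 only, with M -0.82 in the authors' deposited table. The median M of the member peaks was 0.17 for H3K4me3, 0.05 for H3K9Ac and 0.02 for H3K27Ac, against 0.07, 0.07 and 0.08 for all peaks.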

How the data were processed

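RPKM values for 23637 genes were deposited by the authors, per the file headers, with their own log2 ratio, p-value and adjusted p-value for each time. The submitters' processing notes name TopHat2 2.0.9, Bowtie 1.0.0, MACS2 2.0.10.20130712 and DESeq, with hg19. For peaks, the authors deposited a log2 ratio (M), a mean log2 level (A) and −log10 p, per the file headers. The counting, its strand setting and the annotation release were not given in the sources at hand, and 6 columns of per-library reads, which could not be assigned to samples, were not used.

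The design preferred counts; since the tables hold RPKM, its written fallback was used: log2(RPKM + 0.1), a 2-fold rule with at least 1 RPKM, and limma 3.58.1 (R 4.3.3) over 11953 genes with Benjamini-Hochberg adjustment. The limma script was tested on simulated data. A peak listed at several starts within 20 kb with identical values was counted once. Members with at least 10 RPKM, list genes past the 2-fold rule and peaks past it were named. Members and lists were chosen with earlier results of these data known. Alternatives were other pseudocounts, limits, priors and centring, each time left out, and stricter peak limits. One further marker list is not reported here.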

Additional observations from a re-analysis of the deposited data

Results flagged for a closer look

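For 6 keratins the IL-13 libraries were above the control at both 2 and 6 hr and below it at 24 hr, which is what singled them out. The test of the difference is limma's comparison of the 24 hr ratio with the mean of the earlier ones, given here in log2 units with its Benjamini-Hochberg adjusted p. It did not pass for any of the 6 in limma with a constant prior. It passed as lower for 5 of them in limma-trend, where 3.52% of all genes passed as lower. The 6 were picked by the signs of these same ratios, so a negative difference was fixed in advance. The share over all genes, which were not picked that way, is therefore no like background, and these passes are a description only. KRT16, the type I wound keratin, had a difference of -1.12 ± 0.07 (SE), with an adjusted p of 0.0860 in limma and 0.00448 in limma-trend. For the wound keratins KRT6A, KRT6B and KRT6C, near-identical genes that can share reads, the differences were -0.58, -0.60 and -0.57, with an adjusted p of 0.112, 0.113 and 0.114 in limma and 0.00856, 0.00813 and 0.00847 in limma-trend. KRT8, a simple epithelial keratin, had a difference of -0.70 ± 0.10 (SE), with 0.125 in limma and 0.0150 in limma-trend. KRT3, a corneal keratin near 1 RPKM, had a difference of -0.54 ± 0.22 (SE) and did not pass in either, with an adjusted p of 0.273 in limma and 0.268 in limma-trend. Some reads seem to have entered both the 2 and the 6 hr control, and these SEs may then be too small. The single read set and passage label of the 24 hr libraries move with this difference, and their part in it was not tested.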

How the results depend on the processing

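Of the 118 alternative values of counts, medians and sums, 100 were the same by the limits used and 18 moved. These values were labelled only as same or moved, so a reversal was not looked for among them. Among single-gene estimates, which limma did not call, signs changed. For the shared IL-13 difference this held without 24 hr for KRT8 (-0.02 to 0.21), KRT16 (-0.08 to 0.29), KRT6B (-0.06 to 0.14) and KRT6C (-0.02 to 0.17), without 2 hr for KRT3 (0.13 to -0.07), and for KRT6A (0.03) without 2 hr (-0.06) or 6 hr (-0.07). For the time and ratio differences 5 such changes fell on KRT3, KRT5, KRT16 and KRT80. With a 1.5-fold rule, 1 member was lower at 2 hr, 3 at 6 hr and 12 at 24 hr, where 0.9%, 1.28% and 3.89% of all genes were. At 6 hr the count of lower members was 0 with a pseudocount of 1 and 0 with a minimum of 5 RPKM. At 24 hr the member median was -0.51 with no minimum RPKM, over 40 members. The 24 hr ratio against the earlier ones gave 12 lower members with limma-trend, where 3.52% of all genes were lower. For H3K4me3 peaks without a minimum level, 1 was higher in library 1 and 2 in library 2. For H3K9Ac, library 1 had 0 at a level of at least 60 and 3 with no minimum, and library 2 had 0 at a level of at least 60 and 0 with a −log10 p of at least 5. For H3K27Ac, library 1 had 2 at a level of 60, 8 with no minimum and 2 with a −log10 p of at least 5, and library 2 had 3 with no minimum and 0 when only the start in the RNA tables was used. The cause was not tested, apart from the limits themselves. With a time left out, fewer members met the level filter of limma: 19 without 2 hr and 20 without 6 hr. KRT81 was in neither fit. Members lower at 24 hr in limma were 10 with all times, 7 without 2 hr and 8 without 6 hr, and members higher stayed at 6. The count without 2 hr includes KRT8, which was not called with all times. The labels give no replicate numbers to pair by, and limma's time term sets control and IL-13 of the same time against each other. Depth limits the members under 1 RPKM, and the missing replicates limit every IL-13 difference.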
